A study of Mus musculus with 24 samples.

Results

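Control cells of interscapular brown adipose tissue (BAT) were compared with control cells of inguinal white adipose tissue (WAT) on day 4 of adipogenic differentiation. The 6 libraries, 3 from each depot, were chosen by their sample labels out of the 24 libraries of the series. Both groups were primary stromal vascular cells, a mixture of non-adipocyte cells with the precursors among them, released with collagenase from mice aged 6 weeks, C57BL/6 in the labels and C57BL/6J in the methods. The labels name the cells BAT preadipocyte and WAT preadipocyte. Both groups had been kept for 4 days in an induction medium with insulin, dexamethasone and 3-isobutyl-methylxanthine, and both carried DMSO, the solvent of the catechin EGCG that other groups of the series received. The control cells of day 8, used here only to set the depot difference of day 4 beside a later one, had then spent 4 more days in a medium with insulin and the thyroid hormone T3. The methods name female mice for the inguinal cells, and the labels give no sex. No sorting of the cells is described, and no source says whether the replicates of a group came from separate animals, isolations or dishes, so the p-values measure the spread between these libraries, which may be technical.

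White adipocytes store triglyceride in a large lipid droplet, whereas brown adipocytes carry many mitochondria and burn fatty acids to give heat through the uncoupling protein UCP1. Both arise from fibroblast-like precursors under the same adipogenic factors, PPARγ and the C/EBP proteins, and the heat-producing genes are switched on late, under adrenergic and thyroid hormone signals. Interscapular brown fat descends largely from the dermomyotome of the anterior trunk, while inguinal fat lies beside the hind limb, and cultured mesenchymal cells are known to keep the Hox code of the body level they came from. A comparison of the depots on day 4 addresses which of these programmes already differ at the end of induction.

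The values are FPKM (read counts divided by gene length and by the reads on genes in that library). The BAT libraries held 40225413, 44981392 and 16803199 reads on genes in replicates 1, 2 and 3, and the WAT libraries 51319195, 42888138 and 16392420. A floor of 3 reads for a gene of 2 kilobases stood at 0.0292 to 0.0373 FPKM in replicates 1 and 2 and at 0.0893 to 0.0915 in replicate 3, for counting error only. Replicates 1 and 2 came in 1 table and replicate 3 in another that had been scaled separately, so replicates 1 and 2 entered the test and replicate 3 gave a direction only. In every list of 3 values below, the third is from that second table. The SD of the log2 difference between replicates 1 and 2 was 0.135 in BAT and 0.132 in WAT, and the median squared difference was 2.11 and 2.23 times the sampling error, so the replicates were not copies of each other.

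Differences are given below as BAT minus WAT on the log2(FPKM + 1) scale, ± SE, from limma on replicates 1 and 2, and a gene is called at an adjusted p under 0.05 over all genes tested. Of 14095 genes tested, 7867 (55.8%) were called. Ratios are of mean FPKM over replicates 1 and 2. In BAT 5842 (41.4%) were higher and 2025 (14.4%) were lower. The median log2 difference over all genes tested was 0.15, so most genes leaned towards BAT. When libraries were rescaled to the median ratio of their genes, the median became 0.01, and 3408 genes (24.2%) were higher in BAT against 3324 (23.6%) lower. The share of higher genes among the called ones thus went from 74.3% to 50.6%, and quantile normalization gave 54.4%. Of the 7867 genes, 5433 were called in the same direction under the median ratio and 0 in the opposite one. The 5 most abundant genes took 6.00% to 6.21% of reads in the BAT libraries and 8.46% to 8.82% in the WAT libraries, where 4 of the 5 were collagen chains. Because of this shift, counts of list members for the depot difference and for its change between days are given below under both scalings.

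A difference of at least 2-fold on the log2(FPKM + 1) scale was found for 632 genes (4.48%), with 304 (2.16%) higher in BAT and 328 (2.33%) lower. Under the median-ratio scaling 630 of the 632 were called in the same direction. In replicate 3, which had no part in the test, the sign of BAT minus WAT was the same for 7469 of the 7867 called genes (94.9%). Over all genes tested it was the same for 81.5%. These shares rest on 1 library a group, so they do not tell how closely a further replicate would follow. The sign was the same for 561 of the 565 protein-coding genes with a 2-fold difference. Of all 632, 55 lacked it, and 53 of these 55 were at 0 in both libraries of replicate 3. Short RNA genes (snoRNA, miRNA or snRNA) made up 46 of the 55, and 487 of the 489 short RNA genes tested were at 0 in both of those libraries.

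**Figure D1:**
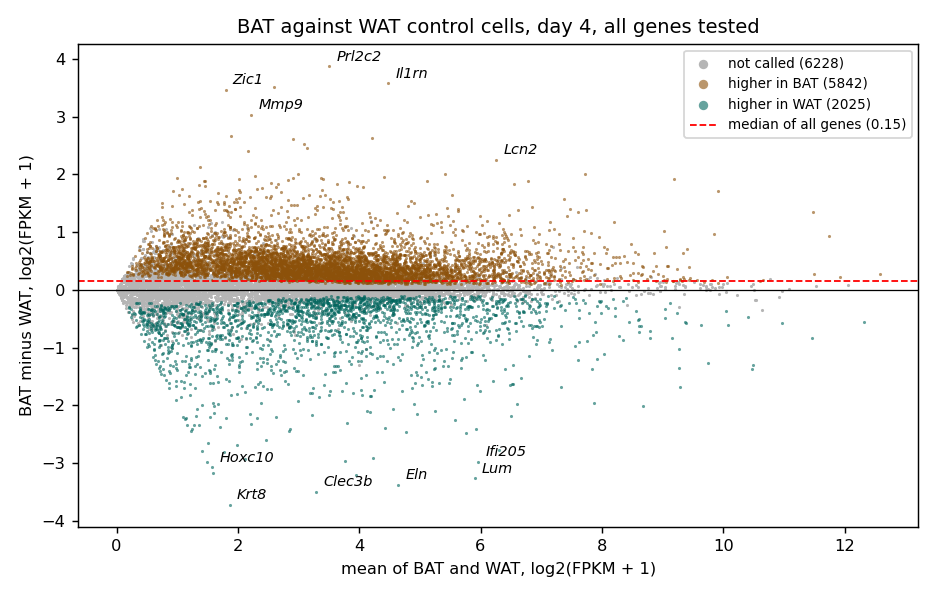
Difference between BAT and WAT control cells on day 4 (y axis, log2(FPKM + 1)) against the mean level of both groups (x axis, log2(FPKM + 1)) for the 14095 genes tested, replicates 1 and 2. Brown points were higher in BAT (5842), green points higher in WAT (2025) and grey points were not called, and the dashed line at 0.15 is the median of all genes.

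The labelled cell types were checked against marker lists. Adipocyte genes were high in both depots: Fabp4, the fatty acid binding protein of adipocytes, stood at 4219, 4918 and 5456 FPKM in BAT and at 1909, 1669 and 2214 in WAT. Genes of other cell types were present and differed between the depots. In bulk samples, fewer cells of a type and less RNA per cell cannot be told apart, and the part of other cell types in the differences below was not tested.

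Macrophage markers were higher in BAT. Of 15 listed, 13 were tested, 11 were higher in BAT and 0 lower (9 and 1 under the median-ratio scaling), with a median log2 difference of 1.02 against 0.15 over all genes. Their summed level was 215 to 242 FPKM in the BAT libraries and 92.3 to 102 in the WAT libraries. Lysozyme (Lyz2), the most abundant of them, read 142, 133 and 154 in BAT and 57.7, 53.2 and 62.2 in WAT, a difference of 1.30 ± 0.071 (SE; adjusted p = 1.42e-07). The complement gene C1qa read 20.4, 20.2 and 22 against 7.38, 7.24 and 9.15. The pan-leukocyte gene Ptprc did not pass the filter, with 0.239, 0.249 and 0.266 in BAT and 0.057, 0.0361 and 0.0734 in WAT. Lymphocyte markers were near 0, with 0 of 10 passing the filter and a summed level of at most 1.15 FPKM.

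Epithelial markers were found in the WAT cells and were at or near 0 in the BAT cells. Of 16 epithelial and mesothelial markers, 12 were tested and 10 were lower in BAT under both scalings. Their sum was 0.727 to 1.42 FPKM in BAT and 48.5 to 93.1 in WAT, and 6 of the 16 were at 0 in all 3 BAT libraries. The adhesion protein Epcam read 0, 0 and 0 in BAT and 3.93, 3.28 and 3.2 in WAT, and basal keratin Krt5 read 0, 0 and 0 and 6.36, 2.81 and 5.49. The mesothelial marker Msln was low in both groups, at 0.106, 0.305 and 0.31 and 0.0369, 0.11 and 0.289.

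Skeletal muscle markers were also higher in WAT. Of 26 listed, 18 were tested and 14 were lower in BAT and 0 higher (15 and 0 under the median-ratio scaling), with a median of -0.92. The sum was 29.5 to 45.7 FPKM in BAT and 121 to 132 in WAT. Skeletal actin (Acta1) read 5.19, 8.79 and 7.45 in BAT and 22.8, 22.9 and 22.6 in WAT, and fast troponin T (Tnnt3) read 3.8, 4.1 and 3.25 and 15.5, 16.5 and 16.8. The myogenic factor Myog, at 0.571, 2.13 and 0.805 and 2.15, 1.86 and 2.6, was not called.

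Among protein-coding genes with a mean of at least 5 FPKM in the higher depot, the 12 highest in BAT were Prl2c2, Il1rn, Tnfsf11, Zic1, Mmp9, Tmem45b, Car2, Kng1, Gldc, Wisp2, Mtap7d2 and Lcn2, with log2 differences from 2.26 to 3.88. In each of them every BAT library was above every WAT library, and the rule required the same sign in all 3 replicates. All 24 genes of this kind, highest and lowest, kept their direction and call under every alternative run on them, although the choice itself required a call under the median-ratio scaling.

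Prl2c2 (chr13:13088393-13097659 in mm9, minus strand), a proliferin of the prolactin family known from placenta and from growing fibroblasts, read 46.1, 38.3 and 33.1 FPKM in BAT and 1.44, 2.5 and 2.08 in WAT. The BAT level was 21.4 times the WAT level, a difference of 3.88 ± 0.19 (adjusted p = 8.04e-08). The close copy Prl2c3 read 4.04, 2.67 and 3.5 against 0.436, 0.549 and 0.287 (1.53 ± 0.21, adjusted p = 9.23e-05). Of the other listed proliferins Prl2c1 and Prl2c5 did not pass the filter, Prl2c4 was not matched to the annotation, and reads may have been split between these near-identical genes.

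Several of the highest genes act in inflammation or matrix turnover. Il1rn, the antagonist of the interleukin 1 receptor, read 80.9, 71.2 and 71.8 in BAT and 5.1, 5.78 and 5.5 in WAT (3.58 ± 0.15, adjusted p = 3.12e-08). Tnfsf11, the RANK ligand that drives osteoclast formation, read 24.3, 14.9 and 15.9 and 1.0, 0.563 and 0.9. Replicate 1 of BAT was the highest Tnfsf11 library, and the groups stayed far apart. Mmp9, a gelatinase, read 13.8, 10.9 and 10.6 against 0.601, 0.639 and 0.692 (3.03 ± 0.12), and Lcn2, a lipocalin that binds bacterial siderophores, read 162, 170.0 and 190.4 against 37.3, 30.9 and 47.3 (2.26 ± 0.22). The macrophage markers above were higher in the same libraries, and their part in these 4 differences was not tested.

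The other highest genes were of mixed kinds. Car2, a cytosolic carbonic anhydrase, read 39.6, 50.9 and 47.2 in BAT and 6.79, 6.06 and 8.08 in WAT. Wisp2, a secreted CCN family protein, read 19.9, 19.5 and 20.1 and 2.74, 2.78 and 2.48, with BAT replicates very close together. Kng1 (kininogen) stood 8.67 times higher in BAT, Gldc (the decarboxylase of the glycine cleavage system) 7.68 times, Mtap7d2 (a microtubule-associated protein) 9.96 times and Tmem45b 17.6 times. Gldc and Mtap7d2 overlap other annotated genes, and as the use of strand in counting is not stated, reads of such pairs cannot be told apart.

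The 12 lowest in BAT were Krt8, Clec3b, Eln, Lum, Mup10, Krt18, Hoxc10, Krt14, Ifi205, Plau, Slpi and Mfap4, with log2 differences from -3.72 to -2.91. The 3 keratins had 0 reads in all 3 BAT libraries. Krt8 read 12.9, 11.6 and 14 FPKM in WAT and was at least 313-fold lower in BAT, computed against the floor of 3 reads in each library. Krt18, which pairs with Krt8 in simple epithelia, read 8.3, 7.66 and 27.3 in WAT (at least 158-fold), and Krt14 of basal epithelia read 7.92, 6.03 and 24.1 (at least 168-fold). Replicate 3 of WAT was the highest library for Krt18 and Krt14. The 3 keratins are members of the epithelial marker list above, and their reads may be shared with pseudogene copies.

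Among the other lowest genes 3 code for proteins of the extracellular matrix. Eln, the elastin of elastic fibres, read 6.27, 7.27 and 6.29 in BAT and 83.4, 75.9 and 63.1 in WAT (-3.38 ± 0.18, adjusted p = 1.25e-07). Lum, a collagen-binding proteoglycan, read 18.8, 17.8 and 19.4 and 196, 173 and 202 (-3.26 ± 0.19). Mfap4, a microfibril-associated protein that overlaps Mapk7, read 5.69, 5.92 and 7.2 and 53.2, 46.9 and 45. In all 3 genes every WAT library was far above every BAT library.

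Plau, the urokinase plasminogen activator, read 3.94, 3.83 and 4.09 in BAT and 38.7, 35.5 and 38 in WAT (-2.96 ± 0.11). Slpi, an inhibitor of leukocyte proteases made by epithelia, read 0.993, 0.203 and 0.611 and 11.5, 10.0 and 10.2, with its BAT libraries widely scattered (-2.92 ± 0.41). Clec3b, the plasminogen-binding tetranectin, read 1.46, 2.4 and 1.98 and 34.2, 29.4 and 40.5. Ifi205, an interferon-inducible gene, was 8.19 times higher in WAT, and Mup10, a major urinary protein of a family of near-identical genes, was 11.2 times higher, with its assignment among copies uncertain.

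**Figure D2:**
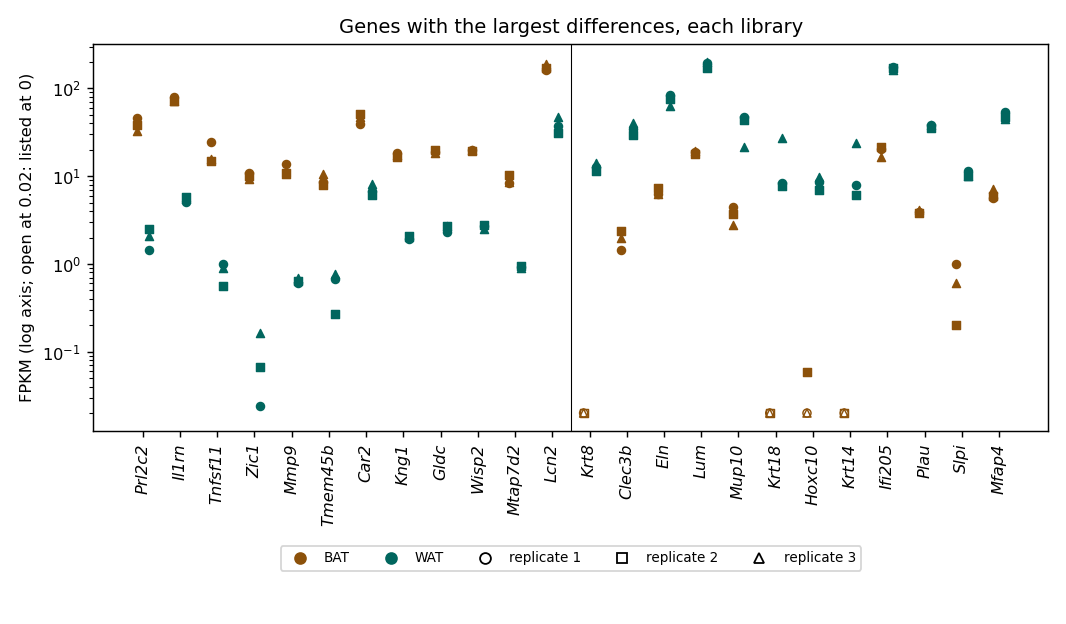
FPKM (log axis) of the 12 protein-coding genes with the highest (left of the line) and the 12 with the lowest (right) log2 difference, in each BAT (brown) and WAT (green) library. Symbols mark replicates 1, 2 and 3 and open symbols a value of 0, and in each gene the 3 libraries of a depot sit on 1 side of the other depot's.

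Genes of the brown lineage, most of them transcription factors, were more often higher than lower in BAT. Of 19 listed, 12 were tested, 8 were higher in BAT and 0 lower (6 and 0 under the median-ratio scaling), with a median of 0.33 (0.20 under the median ratio). Zic1, a zinc finger factor used as a marker of brown precursors, read 10.9, 10.2 and 9.29 FPKM in BAT and 0.0243, 0.0665 and 0.163 in WAT. The difference was 3.47 ± 0.077 (adjusted p = 5.05e-10), a ratio of 232 that rests on 23 WAT reads. Zic4, which overlaps Zic1 on the opposite strand of chromosome 9, read 1.83, 1.66 and 1.42 against 0.01, 0.03 and 0.0157.

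Factors of the somite and its dermomyotome were also called. Pax3, a factor of the dermomyotome, read 1.25, 1.11 and 0.832 in BAT and 0, 0.0121 and 0 in WAT, with 2 WAT reads in replicates 1 and 2 and hence a ratio of 195 (counting interval 58.8 to 1773). En1, which marks the central dermomyotome, read 6.13, 5.5 and 5.03 and 3.11, 3.13 and 3.56 (0.73 ± 0.059). In both genes every BAT library was above every WAT library.

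Factors tied to the brown fate itself differed less. Lhx8 read 29.9, 29.7 and 26.9 in BAT and 17.4, 19.3 and 16.3 in WAT (0.67 ± 0.056), and Ebf3 had a difference of 0.38 ± 0.075. Prdm16, the coregulator that drives brown differentiation, read 1.34, 1.47 and 1.29 against 0.998, 0.991 and 0.858 (0.27 ± 0.08, adjusted p = 0.0136) and was not called under the median-ratio scaling, nor was Meox2. Ebf2, which selects brown target genes with PPARγ, read 16.8, 17.3 and 13.1 and 15.1, 15.1 and 11.4 and was not called (adjusted p = 0.0793), and Irf4 was not called at 0.0738, 0.212 and 0.164 against 1.09, 0.584 and 0.893, although its libraries did not overlap (-0.67 ± 0.29, adjusted p = 0.0634).

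More markers of white and beige cells were lower in BAT than higher. Of 21 listed, 18 were tested, 10 were lower in BAT and 3 higher (10 and 2 under the median-ratio scaling), with a median of -0.32 (-0.45 under the median ratio and -0.19 without BAT replicate 2). The list shares Hoxc8, Hoxc9 and Hoxc10 with the Hox genes below. Tbx1, a T-box factor used as a beige marker, read 0.014, 0.0125 and 0.0335 in BAT and 1.85, 1.52 and 1.79 in WAT, a ratio of 127 with a counting interval of 35.4 to 1069 on 2 BAT reads. Dpt (dermatopontin) read 103, 96.2 and 100.4 and 212, 201 and 231 (-1.04 ± 0.089). Against the list's name, the proton-coupled amino acid transporter Slc36a2, known from beige and brown cells, read 52.6, 62.2 and 56.9 and 29.2, 26.9 and 30.2 (1.01 ± 0.10). The adipokine leptin (Lep) was low in both, at 0.473, 0.484 and 1.19 and 0.502, 0.444 and 0.449, and was not called.

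The Hox genes split by their place in the cluster. Of 39 Hox genes 25 were tested, 17 were higher in BAT and 5 lower (16 and 5 under the median-ratio scaling). Among paralogues 1 to 7, which are expressed from anterior levels on, 14 of 16 tested were higher in BAT and 0 lower under both scalings. Among paralogues 8 to 13, 3 of 9 were higher and 5 lower (2 and 5 under the median ratio). All but 5 of the 25 tested overlap another annotated gene, so reads of neighbours within a cluster cannot be told apart where counting ignored strand.

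Hoxa5, at the anterior end, read 10.2, 9.89 and 10.1 FPKM in BAT and 2.47, 1.71 and 1.89 in WAT (1.85 ± 0.11, adjusted p = 2.39e-07). Hoxa3 read 2.73, 2.96 and 2.73 against 0.353, 0.595 and 0.237 (1.39 ± 0.15), Hoxb6 differed by 1.29 ± 0.11 and Hoxb4 by 1.18 ± 0.09. At the posterior end Hoxc10 read 0, 0.0582 and 0 in BAT and 8.5, 6.89 and 9.68 in WAT (-3.07 ± 0.093, adjusted p = 5.4e-09), a ratio of 264 on 5 BAT reads. Hoxa10, which overlaps no other gene, had no read in any BAT library and read 3.9, 4.21 and 4.33 in WAT, at least 147-fold lower in BAT. Hoxc9 and Hoxa9 were lower in BAT by differences of -2.07 and -1.58, and Hoxc8 by a smaller -0.52. Hoxd8 (1.04 ± 0.12) and Hoxd9 (0.63 ± 0.10) went the other way. So did Hoxb9 (0.48), which kept its direction under the median-ratio scaling (0.38) but was not called there. The 5 posterior genes lower in BAT were all of the Hoxa and Hoxc clusters.

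**Figure D3:**
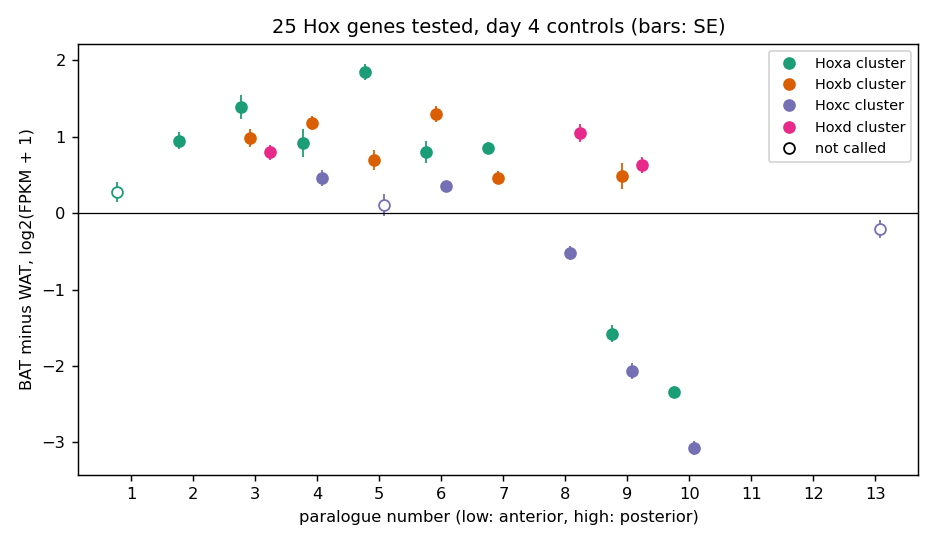
Log2 difference between BAT and WAT (y axis, log2(FPKM + 1), bars are SE) of the 25 Hox genes tested, by paralogue number (x axis) and cluster (colour), with open symbols for genes not called. Genes of paralogues 1 to 7 lie above 0, and the lowest points are Hoxc10, Hoxa10, Hoxc9 and Hoxa9.

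Patterning factors outside the Hox clusters were called in both directions. Of 75 listed, 50 were tested, 15 were higher in BAT and 19 lower, beside 41.4% and 14.4% of all genes tested. Under the median-ratio scaling 11 were higher and 25 lower, beside 24.2% and 23.6%. The median was -0.09. It was -0.22 under the median ratio, -0.05 without BAT replicate 1 and -0.02 without WAT replicate 2. The homeobox factor Six2 read 3.1, 2.75 and 2.85 in BAT and 0.037, 0 and 0.0289 in WAT (1.95 ± 0.11), and the forkhead factor Foxf2 read 4.46, 4.03 and 3.17 and 0.396, 0.444 and 0.542 (1.88 ± 0.082). Foxc2 was also higher in BAT (1.37 ± 0.11). On the WAT side stood the Iroquois factors Irx1, at 1.18, 1.19 and 1.3 in BAT and 8.51, 8.85 and 9.88 in WAT (-2.15 ± 0.12), and Irx2 (-1.72 ± 0.094), with the paired-like factor Alx4 at 0.074, 0.113 and 0.0506 and 3.1, 2.83 and 3.29 (-1.86 ± 0.11). The zinc finger factor Osr2 (-1.36 ± 0.15), Tbx15 (-0.74 ± 0.08) and Twist1 (-0.65 ± 0.064) were lower in BAT by less.

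Ucp1 was low in both depots, and thermogenic genes were called in both directions. Of 23 thermogenic effectors 18 were tested, 9 were higher in BAT and 3 lower under both scalings, with a median of 0.34. Over all genes tested 41.4% were higher and 14.4% lower as deposited, and 24.2% and 23.6% under the median-ratio scaling. Ucp1 itself read 0.423, 0.243 and 0.217 FPKM in BAT and 0.178, 0.0567 and 0.0371 in WAT, which rests on 46 and 19 reads in replicates 1 and 2, and was not called (0.25 ± 0.11, adjusted p = 0.0608). The lipid droplet gene Cidea was also low, at 0.342, 0.229 and 0.358 and 0.0502, 0.16 and 0, and not called. The cytochrome oxidase isoforms Cox7a1, at 2.87, 3.54 and 3.43 and 3.0, 2.18 and 2.01, and Cox8b, at 3.5, 4.24 and 4.11 and 4.63, 5.35 and 6.91, were not called either, nor was the coactivator Ppargc1a (0.23 ± 0.12, adjusted p = 0.112). For these genes no depot difference was called with 2 libraries a group on day 4. The libraries of Ucp1, Cidea and Cox8b did not overlap between the depots, with Cox8b lower in BAT. The log2(FPKM + 1) scale also compresses differences of values under 1 FPKM, as those of Ucp1 and Cidea were.

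The thermogenic genes that were higher in BAT were led by a receptor and a lipid enzyme. Adrb3, the β3-adrenergic receptor of adipocytes, read 21.4, 23.2 and 25.6 in BAT and 6.25, 4.86 and 6.15 in WAT (1.83 ± 0.11, adjusted p = 2.53e-07). Elovl3, a fatty acid elongase, read 10.2, 12.9 and 12.3 and 3.96, 3.14 and 4.02 (1.47 ± 0.20). Smaller differences were found for Pank1 of coenzyme A synthesis (0.92 ± 0.12), the fatty acid receptor Ppara (0.71 ± 0.14), the thyroid hormone activating deiodinase Dio2 (0.66 ± 0.12) and the potassium channel Kcnk3 (0.62 ± 0.13). The hormone Fgf21 was lower in BAT, at 0.695, 0.526 and 0.832 against 7.31, 5.74 and 5.18 (-2.22 ± 0.26, adjusted p = 3.2e-05), and so were Fabp3 (-0.93 ± 0.25) and the acyl-CoA thioesterase Acot2 (-0.76 ± 0.10).

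Genes of the mature adipocyte were higher in BAT. Of 26 tested, 23 were higher and 1 lower (22 and 1 under the median-ratio scaling), with a median of 0.96 (0.79 under the median ratio). Cidec, which fuses lipid droplets, read 75.9, 93.5 and 112 FPKM in BAT and 21.9, 18.8 and 26.8 in WAT (2.0 ± 0.11, adjusted p = 1.14e-07). Dgat2, of triglyceride synthesis, read 262, 309.6 and 348 and 102, 89.4 and 124, and Adipoq, the hormone adiponectin, read 285, 333 and 377 and 131, 110.2 and 143 (1.35 ± 0.095). In all 3 every BAT library was above every WAT library.

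The master regulator Pparg differed by 0.67 ± 0.11. Lpl, the lipoprotein lipase, was the exception at 1098, 1213 and 1228 in BAT and 1636, 1574 and 1551 in WAT (-0.48 ± 0.079, adjusted p = 0.000379). Car3, another abundant adipocyte gene, overlapped between the groups at 1251, 1532 and 1579.6 and 1690.0, 1437 and 1657 and was not called.

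Lipogenic enzymes followed the same direction. Of 17 tested, 15 were higher in BAT and 0 lower (13 and 0 under the median-ratio scaling), with a median of 0.76. Scd1, the stearoyl-CoA desaturase, read 1633, 1839.8 and 1853 in BAT and 555, 503 and 547 in WAT (1.71 ± 0.072, adjusted p = 3.1e-08). Pnpla3 differed by 1.63 ± 0.088, malic enzyme Me1 by 1.31 ± 0.09 and fatty acid synthase Fasn by 1.05 ± 0.21, with a wider SE. The carbohydrate-responsive factor Mlxipl and the elongase Elovl6 were not called.

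Mitochondrial genes were higher in BAT by small and even amounts. All 50 subunits of oxidative phosphorylation tested were higher in BAT (44 under the median-ratio scaling, with 0 lower), between 0.18 for Ndufs4 and 0.74 for cytochrome c (Cycs). The median was 0.53, and 0.36 under the median ratio. All 21 genes of the citric acid cycle were higher under both scalings, with a median of 0.62. Pcx, the pyruvate carboxylase, led them with 160.3, 187 and 205 in BAT and 92.9, 83.2 and 107 in WAT (0.97 ± 0.11), and Idh3a, a subunit of isocitrate dehydrogenase, differed by 0.92 ± 0.093.

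Most genes of fatty acid oxidation were higher in BAT, with Cpt1a the exception. Of 21 genes 18 were higher in BAT and 1 lower (16 and 3 under the median-ratio scaling), with a median of 0.52. Acadm, the medium-chain acyl-CoA dehydrogenase, read 92.9, 106 and 99.8 in BAT and 55.5, 50.3 and 58.9 in WAT (0.89 ± 0.12), and Cpt2, on the inner mitochondrial membrane, differed by 0.88 ± 0.063. Cpt1a, which loads fatty acids for import into mitochondria, was the lower one, with 11.4, 9.91 and 9.19 in BAT and 19.9, 20.5 and 17.1 in WAT (-0.86 ± 0.11, adjusted p = 5.3e-05).

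**Figure D4:**
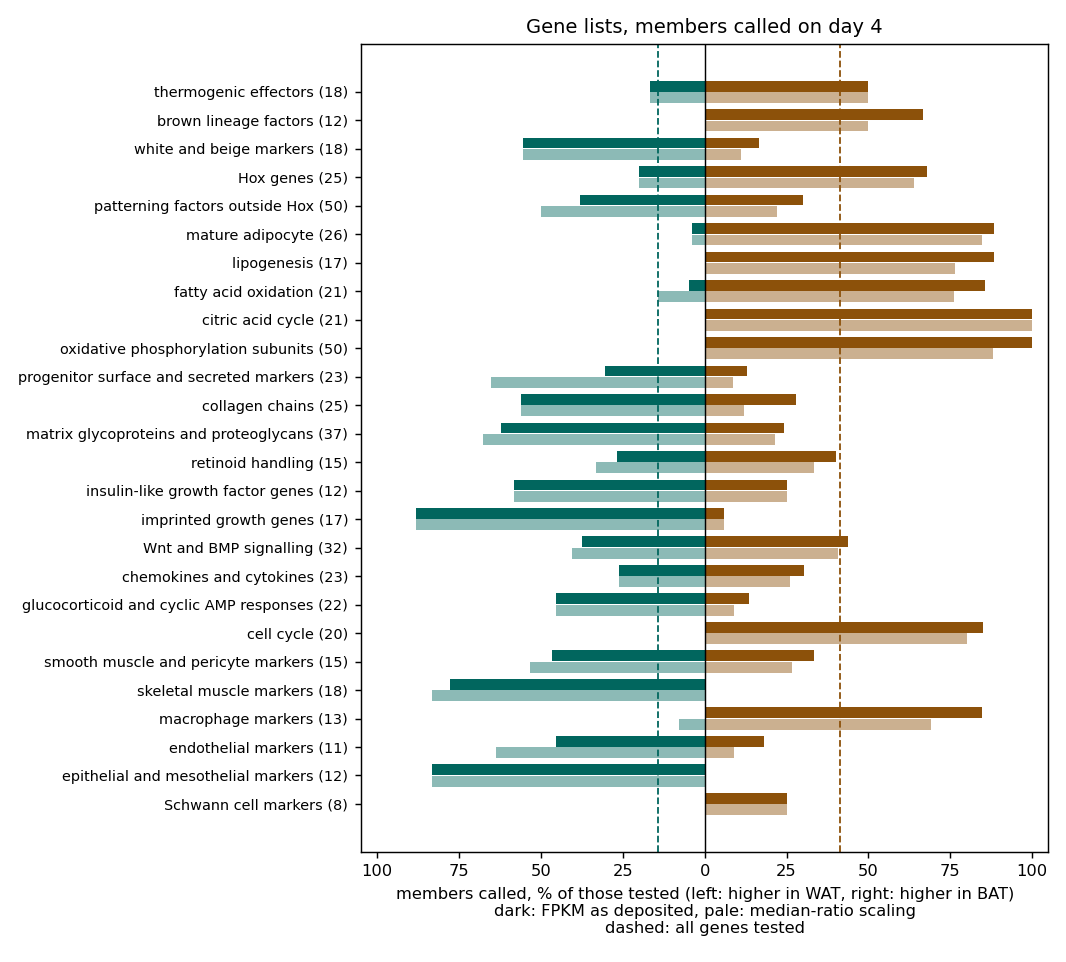
Share of tested members called higher in BAT (right, brown) and higher in WAT (left, green) for each gene list (number tested in brackets), with FPKM as deposited (dark bars) and after median-ratio scaling (pale bars). Dashed lines mark the 41.4% and 14.4% of all genes tested that were called on FPKM as deposited.

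Progenitor markers were called in both directions, more of them lower in BAT. Of 25 progenitor markers 23 were tested, 7 were lower in BAT and 3 higher, beside 14.4% and 41.4% of all genes tested. Under the median-ratio scaling 15 were lower and 2 higher, beside 23.6% and 24.2%. The median as deposited was -0.25. Gdf10, a BMP family ligand, read 47.9, 48.1 and 49.6 in BAT and 190.1, 195 and 210.0 in WAT (-1.98 ± 0.087, adjusted p = 3.65e-08). The preadipocyte factor Dlk1 read 15.3, 15.1 and 15 and 52.2, 51.6 and 60.9 (-1.71 ± 0.19), and the progenitor antigen Cd34 read 1.53, 1.18 and 1.25 and 6.17, 6.74 and 9.75. Pdgfra, the receptor that marks adipocyte progenitors, differed by -0.63 ± 0.086. The surface antigens Thy1 (1.06 ± 0.12) and Ly6a (0.80 ± 0.16) were higher in BAT.

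Collagen chains made up less of the BAT libraries. Of 36 chains 25 were tested, 14 were lower in BAT and 7 higher (14 and 3 under the median-ratio scaling), with a median of -0.52. Their summed level was 10806 to 11315 FPKM in BAT and 18045 to 18709 in WAT. Col1a1 read 914, 926 and 1039.6 and 2245, 2288 and 2578 (-1.30 ± 0.10), and its partner Col1a2 differed by -1.37 ± 0.091. Col8a2 had the lowest value at -1.93 ± 0.15, while its partner chain Col8a1 was higher in BAT, at 9.62, 12.8 and 12.5 against 2.76, 3.5 and 2.81 (1.56 ± 0.13). The transmembrane collagen Col23a1 was also higher (1.62 ± 0.15).

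Glycoproteins and proteoglycans of the matrix went the same way. Of 39, 37 were tested, 23 were lower in BAT and 9 higher (25 and 8 under the median-ratio scaling), with a median of -0.59. Besides Eln and Lum, the collagen-binding proteoglycan decorin (Dcn) read 218, 189 and 201 in BAT and 838, 799 and 852 in WAT (-2.01 ± 0.10). Spon1 differed by -2.49 ± 0.13, Cilp by -2.40 ± 0.20 and Ogn by -2.12 ± 0.10. The cartilage and tendon protein Comp was opposite, with 4.04, 4.78 and 6.26 in BAT and 0.193, 0.269 and 0.277 in WAT (2.13 ± 0.084, adjusted p = 2.01e-08), as was Ltbp2 (1.64 ± 0.12), a relative of the TGF-β binding proteins.

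Ligands and antagonists of Wnt and BMP signalling were divided. Of 43, 32 were tested, 14 were higher in BAT and 12 lower, beside 41.4% and 14.4% of all genes tested. Under the median-ratio scaling 13 were higher and 13 lower, beside 24.2% and 23.6%. The median of 0.06 changed sign to -0.03 with the scaling. Left-out libraries moved it too, to 0.004 without BAT replicate 1, 0.10 without BAT replicate 2 and 0.03 without WAT replicate 1. The ligand Wnt16 read 15.9, 14 and 11.8 in BAT and 3.73, 4.45 and 3.78 in WAT (1.65 ± 0.18), and the Wnt enhancer Rspo3 read 6.68, 7.44 and 7.26 and 1.72, 1.55 and 1.76 (1.61 ± 0.12). The BMP antagonist Grem1 was higher in BAT (1.34 ± 0.16), as was Wnt5a (1.04 ± 0.11). Follistatin (Fst), an activin antagonist, read 58, 57.4 and 55.2 and 151, 138 and 124 (-1.31 ± 0.051), and the Wnt antagonists Sfrp2 (-0.86 ± 0.14) and Sfrp5 (-1.33 ± 0.19) were also lower in BAT.

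Imprinted growth genes were lower in BAT almost throughout. Of 17 tested, 15 were lower and 1 higher under both scalings, with a median of -0.83. The zinc finger gene Zim1 read 5.2, 5.4 and 4.09 in BAT and 28.3, 31.8 and 14.4 in WAT (-2.30 ± 0.13), and its neighbour Peg3 read 33, 34.4 and 26.6 and 106, 110.0 and 81.5 (-1.65 ± 0.12). Cdkn1c, an inhibitor of cyclin-dependent kinases, read 11.3, 15.5 and 14.8 and 46.8, 46.7 and 53.6 (-1.75 ± 0.15). The long noncoding RNA H19 read 438, 414 and 493 and 756, 762 and 979. Dio3, the deiodinase that inactivates thyroid hormone, was the exception, at 5.99, 4.79 and 6.24 in BAT and 1.55, 1.67 and 2.43 in WAT (1.28 ± 0.11).

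Insulin-like growth factor genes leaned the same way, with 7 of 12 tested lower in BAT and 3 higher under both scalings. Over all genes tested 14.4% were lower and 41.4% higher, and 23.6% and 24.2% under the median ratio. The ligands Igf2 (-1.07 ± 0.095), itself imprinted, and Igf1 (-0.93 ± 0.19) were lower. Igfbp6, a binding protein for IGF2, read 36.6, 46.6 and 68.9 in BAT and 194, 188 and 262 in WAT (-2.18 ± 0.12), while Igfbp4 read 1341, 1249.6 and 1426 and 641, 679 and 831 (0.97 ± 0.15). The receptor Igf1r was not called.

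Retinoid genes differed gene by gene. Of 17, 15 were tested, 6 were higher in BAT and 4 lower, beside 41.4% and 14.4% of all genes tested. Under the median-ratio scaling 5 were higher and 5 lower, beside 24.2% and 23.6%. The cytosolic retinoic acid binding proteins were opposed, with Crabp1 at 0.434, 0.665 and 1.11 in BAT and 8.92, 9.1 and 8.14 in WAT (-2.70 ± 0.19) and Crabp2 at 6.78, 6.02 and 6.39 and 2.2, 2.7 and 2.23 (1.10 ± 0.20). The synthesis enzyme Aldh1a1 was lower in BAT (-1.15 ± 0.16). Rdh10, which makes retinal from retinol, was higher (1.0 ± 0.14), and so was Cyp26b1, which degrades retinoic acid (1.08 ± 0.13).

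Chemokines and cytokines were also divided. Of 24, 23 were tested, 7 were higher in BAT and 6 lower, beside 41.4% and 14.4% of all genes tested. Under the median-ratio scaling 6 were higher and 6 lower, beside 24.2% and 23.6%. Ccl9 read 20.7, 18.7 and 20.9 in BAT and 4.54, 4.33 and 5.58 in WAT (1.93 ± 0.13), and the neutrophil attractant Cxcl5 read 57.1, 40.6 and 40.6 and 15.5, 16.2 and 17.1 (1.55 ± 0.43). Eotaxin (Ccl11) was lower in BAT, at 22.1, 22.6 and 25.6 and 60.4, 58.7 and 60.6 (-1.38 ± 0.18). Macrophage markers were higher in the same BAT libraries, and their part in Ccl9 was not tested.

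Among genes that respond to glucocorticoids and cyclic AMP, both raised by the induction medium, more were lower in BAT than higher. Of 22 tested, 10 were lower and 3 higher (10 and 2 under the median-ratio scaling), with a median of -0.13 (-0.30 under the median ratio). Sgk1, a kinase induced by glucocorticoids, read 25.6, 25.1 and 26.1 in BAT and 146, 133 and 130.2 in WAT (-2.41 ± 0.12, adjusted p = 8.04e-08). Hsd11b1, which regenerates active glucocorticoid, read 6.38, 6.85 and 7.22 and 17.8, 18.4 and 18.2 (-1.33 ± 0.22), and the orphan nuclear receptor Nr4a3 read 2.45, 2.14 and 2.41 and 7.34, 7.13 and 6.77. The early adipogenic factor Cebpd was higher in BAT, at 112, 112 and 89.6 and 57.4, 58.2 and 55.6 (0.94 ± 0.10).

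Cell cycle genes were higher in BAT. Of 20 tested, 17 were higher and 0 lower (16 and 0 under the median-ratio scaling), with a median of 0.75. Mki67, a marker of cycling cells, read 16.4, 15.8 and 13.2 FPKM in BAT and 8.33, 9.07 and 7.8 in WAT (0.82 ± 0.076, adjusted p = 5.97e-06), and topoisomerase Top2a read 41, 37.8 and 32.5 and 19.8, 20.2 and 19.3 (0.95 ± 0.079). The largest difference was that of the mitotic kinase Aurka, at 14.1, 13.8 and 14.5 and 6.37, 6.74 and 7.11 (0.98 ± 0.11). The replication genes Pcna, Mcm2 and Mcm6 were not called, with differences of 0.13 ± 0.055, 0.11 ± 0.085 and 0.12 ± 0.057.

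The promoters of the whole cell cycle list, genes called or not, were searched for motifs on both strands of the 250 bases before the RefSeq start. These were CCAAT, the box bound by NF-Y, and TTTGAA, the core of the cell cycle homology region (CHR) bound by the DREAM complex. Of 18 list genes with a promoter in RefSeq, 16 (88.9%) held a CCAAT box, 6 (33.3%) a CHR core and 6 (33.3%) both. Among all 27025 genes with a promoter the shares were 37.5%, 18.3% and 6.45%, and among 9070 of the genes tested 40.7%, 12.4% and 4.88%. The 6 genes with both motifs were not all called higher in BAT. A match is a description of letters and not evidence of binding. The stretches that hold the matches are printed for 3 genes called higher in BAT, with the motifs of either strand in capitals, read in the direction of the gene (GRCm38.p6, all on the minus strand): Cdc20, which activates the anaphase-promoting complex, at chr4:118437344-118437408, Cdk1, the mitotic cyclin-dependent kinase, at chr10:69352913-69353132, and Mki67 at chr7:135716460-135716579.
Cdc20: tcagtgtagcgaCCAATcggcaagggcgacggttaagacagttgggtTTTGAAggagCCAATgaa
Cdk1: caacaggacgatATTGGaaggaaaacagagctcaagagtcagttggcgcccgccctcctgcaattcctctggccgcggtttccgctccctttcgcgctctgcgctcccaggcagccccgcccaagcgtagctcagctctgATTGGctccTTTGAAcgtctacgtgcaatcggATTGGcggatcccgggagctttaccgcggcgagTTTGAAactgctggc
Mki67: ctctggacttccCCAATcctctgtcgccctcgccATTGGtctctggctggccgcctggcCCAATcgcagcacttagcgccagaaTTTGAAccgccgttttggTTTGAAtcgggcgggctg
In the Cdc20 stretch 1 CHR core lies between 2 CCAAT boxes, and the Cdk1 and Mki67 stretches each hold 3 CCAAT boxes and 2 CHR cores. Cdc20 read 22.4, 23.5 and 22.9 in BAT and 12.8, 11.6 and 12 in WAT (0.86 ± 0.14), and Cdk1 read 16.6, 18 and 17.4 and 11.8, 11.5 and 12 (0.53 ± 0.081).

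The depot difference of day 4 was set against that of day 8 in the same fit. The 2 differences differed for 5631 of 14095 genes (40%), with 3542 (25.1%) more BAT-high on day 4 and 2089 (14.8%) more WAT-high. Under the median-ratio scaling these were 2451 and 3020. Here more BAT-high means a higher BAT minus WAT value on day 4 than on day 8. More WAT-high means a lower one, also where BAT was the higher depot on both days. Both differences rest on separate libraries for each day. The median difference between the days was 0.08 over all genes. The genes with the clearest changes were named by their adjusted p. Snai1, a repressor of epithelial genes, read 68.1, 63.4 and 66.5 in BAT and 16.7, 17.4 and 20.7 in WAT on day 4, and 20.6 ± 0.042 and 36.1 ± 0.90 (mean ± SD, n = 2) on day 8, so its direction turned (2.67 ± 0.079, adjusted p = 1.35e-08). Fos, an immediate early factor, went from 12.3, 10.4 and 12 in BAT and 23.7, 20.7 and 22.7 in WAT to 27.4 ± 1.48 and 3.41 ± 0.022 (-3.59 ± 0.15, adjusted p = 1.32e-07). The hexokinase Hk2 was higher in BAT on both days, by 0.54 on day 4 and 1.94 on day 8. The sulfatase Sulf2 changed sides (0.38 and -1.24), as did Ivns1abp (-0.14 and 1.34), and connexin 43 (Gja1) was lower in BAT by -0.66 and -1.83.

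Thermogenic and mitochondrial genes were further apart on day 8. Of 18 thermogenic effectors 13 had a lower BAT minus WAT value on day 4 than on day 8 and 1 a higher one (15 and 1 under the median-ratio scaling). Their median depot difference was 0.34 on day 4 and 1.33 on day 8. Ucp1 reached 6.56 ± 0.58 FPKM in BAT on day 8 and was at 0 in both WAT libraries tested, and Cox7a1 reached 191 ± 1.19 and 21.1 ± 2.0. In contrast Elovl3, 1.47 apart on day 4, stood at 1.74 ± 0.76 in BAT and 1.77 ± 0.39 in WAT on day 8. The oxidative phosphorylation median went from 0.53 to 1.19. All 50 subunits were higher in BAT on day 4, by less than on day 8 for 45 of them (47 under the median-ratio scaling). The citric acid cycle median went from 0.62 to 1.24, with a smaller BAT excess on day 4 for 19 of 21 genes under both scalings.

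Cell cycle and macrophage genes were higher in BAT on day 4, and their medians were below 0 on day 8. Of 20 cell cycle genes 18 were more BAT-high on day 4 and 0 more WAT-high (16 and 0 under the median-ratio scaling), with medians of 0.75 and -0.08, and Mki67 stood at 1.48 ± 0.086 and 1.65 ± 0.088 on day 8. All 13 macrophage markers tested were more BAT-high on day 4 under both scalings, with medians of 1.02 and -0.41. The skeletal muscle markers went the opposite way, with all 18 more WAT-high on day 4 under both scalings and medians of -0.92 and 0.40. These marker shifts touched the same libraries as every depot-by-day difference above, and their part in them was not tested.

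The mature adipocyte list had medians of 0.96 and 0.86, with 7 of 26 genes more BAT-high and 7 more WAT-high on day 4, beside 25.1% and 14.8% of all genes tested. Under the median-ratio scaling 5 were more BAT-high and 10 more WAT-high. Of its leading genes, Cidec was apart by 2.0 on day 4 and 0.20 on day 8. Of 25 Hox genes 12 were more BAT-high on day 4 and 0 more WAT-high (9 and 0 under the median-ratio scaling). Hoxc10 (-3.07 and -3.28), Hoxa10 (-2.34 and -2.28) and Hoxa5 (1.85 and 1.56) had the same direction on both days, with day 4 minus day 8 values of 0.20 ± 0.13, -0.06 ± 0.11 and 0.29 ± 0.15, none of them called, which does not show that they were equal. This did not hold for all Hox genes: Hoxc6 went from 0.35 on day 4 to -0.59 on day 8. Hoxa6 (0.79 and 0.09) and Hoxa7 (0.85 and 0.11) were called on day 4 and not on day 8.

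**Figure D5:**
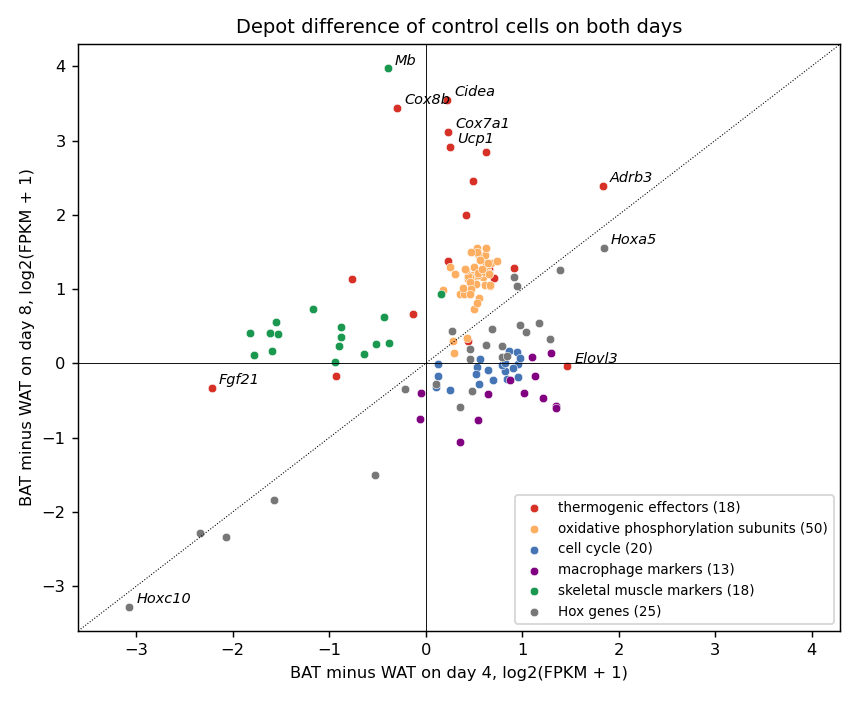
Depot difference (BAT minus WAT, log2(FPKM + 1)) on day 8 (y axis) against day 4 (x axis) for the tested genes of 6 lists, replicates 1 and 2, with the dotted line of equality. Thermogenic genes such as Ucp1 (0.25 and 2.92) lie far above the line, cell cycle and macrophage genes below it, and Hoxc10 and Hoxa5 near it.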

How the data were processed

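The authors deposited FPKM values for 24 libraries in 2 tables, 1 with replicates 1 and 2 and 1 with replicate 3. The submitters' processing notes name FastQC 0.11.9, HISAT2 2.2.0, HTSeq 0.11 and the mm9 build, and whether counting used strand is not given in the sources used here. Gene names and positions came from the GENCODE annotation of that build, in which all 37310 identifiers were found. FPKM times gene length gave whole reads for 100% of values (tolerance 0.01), which served for depth, floors and ratios. Groups came from the sample labels.

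Genes with FPKM of at least 1 in at least 2 of the 16 libraries of replicates 1 and 2 were tested with limma 3.58.1 (R 4.3.3) on log2(FPKM + 1), with 1 mean per group, a trended prior and Benjamini-Hochberg adjustment, two-sided. The fit had 8 residual degrees of freedom. The depot-by-day difference came from the same fit, and the day 4 libraries enter both contrasts. Median-ratio scaling, quantile normalization, other pseudocounts and filters, left-out replicates and other sets of libraries were tried. In data simulated for this comparison, at a dispersion of 0.0019, 200 of 200 changed genes and 7 of 12927 unchanged genes were called. Calling where as many genes differ as in the real libraries was not tested.

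Named genes were the 12 highest and 12 lowest protein-coding genes that were called under both scalings, had a mean of at least 5 FPKM in the higher group and had the same sign in all 3 replicates. The 3 genes per direction with the smallest adjusted p for the depot-by-day difference, at the same minimum level, and members of 29 gene lists were named besides. Of 680 list entries 679 were matched. The groups, members and lists were chosen with earlier results of these data known. Promoters were taken from RefSeq (GRCm38.p6). Columns of the other groups were used only for the spread and for day 8. Some list members are not reported here by name.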

Additional observations from a re-analysis of the deposited data

Results flagged for a closer look

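For 15 of the 24 genes with the highest or lowest depot difference on day 4, that difference differed from the one on day 8 (limma, adjusted p under 0.05 over all genes tested). The same was found for 5631 of all 14095 genes tested (40%). The values below are the day 4 difference minus the day 8 difference on the log2(FPKM + 1) scale. The genes were picked for their day 4 difference and the day 4 libraries enter both, so a smaller difference on day 8 is favoured by the choice. Of the genes higher in BAT, the value was 3.64 for Prl2c2, 2.2 for Tnfsf11, 1.92 for Wisp2, 1.7 for Il1rn, 1.62 for Mtap7d2, 1.6 for Kng1, 1.4 for Gldc, 1.27 for Zic1, 1.26 for Mmp9 and 0.832 for Car2. In all 10 the depot difference was larger on day 4. Of the genes lower in BAT, it was -1.75 for Eln, -1.72 for Slpi, -1.56 for Plau and -1.41 for Mfap4, again larger in size on day 4. Lum was the exception at 1.34, since its difference went from -3.26 on day 4 to -4.61 on day 8. The macrophage and skeletal muscle markers also differed between the days, and their part in these values was not tested.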

How the results depend on the processing

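The count of called genes, 7867, was between 6429 and 8589 under all alternatives other than leaving out a replicate. Without 1 replicate it was 6352 to 6646, with 4741 to 4922 higher in BAT, 1611 to 1724 lower and 625 to 678 of at least 2-fold. The number higher in BAT, 5842, went to 3408 under median-ratio scaling, 3641 under quantile normalization and 3381 under median-ratio scaling with a pseudocount of 0.1, and the number lower, 2025, to 3324, 3052 and 3345. The 2-fold count, 632, went to 1349 with a pseudocount of 0.1 and to 1260 with median-ratio scaling besides, a combination chosen after seeing the data. The smaller pseudocount widens the differences of low genes by construction. The depot-by-day count, 5631, was 4548 to 4962 without 1 replicate and 4642 to 6312 otherwise. The differences between replicates 1 and 2 of the depots correlated at -0.0255 over the genes tested. With 1 such difference per depot, this does not tell whether replicates of the same number shared animals or an isolation. With the replicate block 7755 genes were called, 634 of them 2-fold, and 5487 differed by day. All 336 values of the 24 genes named for day 4 and all 72 of those named for the day difference kept direction and call, but the choice of these genes required a call under median-ratio scaling. Of 26 list medians 1, for Wnt and BMP signalling, changed sign under median-ratio scaling, and that of the Schwann cell markers did under quantile normalization (0.14 to -0.009). With a pseudocount of 0.1 the medians of thermogenic effectors and skeletal muscle markers went to 0.62 and -1.59, and with the filter at 5 FPKM those of white and beige markers and patterning factors to -0.14 and -0.26. With 2 libraries a group in the test and 1 shallower library a group beside it, the difference in Ucp1, with few reads, did not pass the test, and most short RNAs could not be checked in replicate 3.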

Other observations

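Markers of vessels and nerves were also present in these cultures. Of 15 smooth muscle and pericyte markers, 7 were lower in BAT and 5 higher, beside 14.4% and 41.4% of all genes tested. Under the median-ratio scaling 8 were lower and 4 higher, beside 23.6% and 24.2%. The median as deposited was -0.53. Members were called in both directions. Smooth muscle actin (Acta2) read 47.5, 61.2 and 64.2 FPKM in BAT and 97.5, 80.4 and 83 in WAT (-0.70 ± 0.18), and desmin (Des) read 2.53, 3.77 and 3.36 and 8.31, 9.09 and 8.78 (-1.24 ± 0.12). Rgs5 was higher in BAT at 3.35, 3.31 and 3.24 and 1.26, 1.46 and 0.983 (0.88 ± 0.15), as was Mcam at 26.5, 29.6 and 26.2 and 18.2, 17.6 and 17.8 (0.62 ± 0.059).

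Of 12 endothelial markers 11 were tested, 5 were lower in BAT and 2 higher, beside 14.4% and 41.4% of all genes tested. Under the median-ratio scaling 7 were lower and 1 higher, beside 23.6% and 24.2%. The tight junction gene Cldn5 read 0.158, 0.252 and 0.253 in BAT and 3.02, 2.8 and 4.06 in WAT (-1.70 ± 0.093, adjusted p = 1.42e-07), while Pecam1 was not called at 4.19, 5.24 and 4.46 and 5.02, 5.26 and 4.79. Among 8 Schwann cell markers 2 were higher in BAT and 0 lower under both scalings, beside 41.4% of all genes tested that were higher. In replicate 3, 3 of the 8 were above WAT and 5 below. Of these markers Sox10, a transcription factor of the neural crest, read 6.59, 6.94 and 6.51 and 3.68, 5.13 and 5.31 (0.54 ± 0.11). The Y-linked genes Ddx3y, Kdm5d and Uty were at 0 in all 6 libraries, and Eif2s3y was at 0 in 5 of them and at 0.0196 FPKM in WAT replicate 3.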
